A study of Canis lupus familiaris with 18 samples.

Results

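High grade oligodendroglioma (HGO) tissue from French bulldogs was compared between tumors of the frontal lobe and tumors of the temporal lobe. The members are 9 of the 18 libraries of the series. They come from 8 cases, of which 4 are frontal (FBD1, FBD5, FBD7 and FBD9, where FBD stands for French bulldog) and 4 are temporal (FBD3, FBD10, FBD11 and the case sequenced as both FBD2 and FBD8). The lobe is not in the sample labels, which give only the breed and a forebrain tumor. It was taken from the table of dogs in the study, joined to the libraries by dog number. FBD2 and FBD8 share a case number in their library names and have the same entries in that table, so their counts were summed and treated as 1 case. The study lists and counts them as separate dogs.

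RNA sequencing was performed on formalin-fixed, paraffin-embedded tumor taken at surgery from client-owned dogs, before any trial treatment. The series was collected to compare French bulldogs with boxers and Boston terriers, and not to compare lobes. The French bulldogs with parietal tumors (FBD4 and FBD6) were not used here. The frontal cases are 3 males and 1 female and all left-sided. The temporal cases are 2 males and 2 females, of which FBD3 is right-sided and the others left-sided. The frontal dogs were older on average and the ages overlapped, with the youngest dog in the temporal group and the oldest in the frontal group. The age that the table gives for FBD10, the youngest, lies below the range stated in the text of the study, and every value with age as a term below rests on it. No library of brain without tumor was part of the comparison, so lobe of the tumor and lobe of the surrounding brain cannot be told apart.

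Oligodendroglioma is a glioma whose cells resemble oligodendrocyte progenitors, which carry the transcription factors OLIG2 and SOX10 and the growth factor receptor PDGFRA. The frontal and temporal lobes are set apart in the embryo by graded signals and transcription factors, with FGF signalling and its targets ETV1, ETV4, ETV5 and the SPRY genes at the frontal end, and WNT and BMP signals and EMX2 and NR2F1 toward the back. A resected piece of tumor also holds neurons, myelin, reactive astrocytes, macrophages and vessels in amounts that vary from piece to piece. In such bulk samples, fewer cells of a type and less RNA per cell cannot be told apart.

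Both markers of the tumor type were counted in every case. OLIG2 had 1137 to 3207 counts per case and SOX10 had 1986 to 8305. The totals counted on genes ran from 8212452 (FBD5) to 17924670 (FBD2 and FBD8 summed). The mean total was 11429160 ± 2218930 (SD, n = 4) in frontal cases and 12350580 ± 3879159 (SD, n = 4) in temporal cases, and these did not differ by more than the spread between cases (two-sided p = 0.771 in an exact permutation test of the 70 ways to split the cases). With the mean of FBD2 and FBD8 in place of their sum the difference in mean totals turned from -921420 to 1319164. The smallest p that 4 cases against 4 can give in such a test is 0.0286. At these depths 3 counts, taken as the smallest level the counts could show, correspond to 0.167 to 0.365 CPM (counts scaled to a common library size), which covers counting error only. A single gene without a symbol took 18.9% to 33.4% of the counts of a case.

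Lobe accounted for little of the variation between tumors. Of the variance of log2 CPM over the genes tested, 11.7% lay between the lobes, and splits of the same 8 cases into other groups of 4 often gave as much (exact permutation test, one-sided, p = 0.600). Principal components 1 to 4 took up 36.4%, 23.9%, 15% and 9.49% of it. The share of each component that lay between the lobes was 13.8%, 0.717%, 21.7% and 7.5%, with exact permutation p-values of 0.400, 0.857, 0.257 and 0.514 (two-sided), which became 0.685, 0.857, 0.685 and 0.685 after adjustment over the 4 components.

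Distances between tumors of the same lobe overlapped those between lobes. The Euclidean distance between libraries on the log2 CPM scale ran from 100.2 to 174 for the 6 pairs of frontal dogs, with a median of 146. It ran from 104 to 198 for the 9 pairs of temporal libraries from different dogs, with a median of 174. For the 20 pairs of a frontal and a temporal library it ran from 92.6 to 213, with a median of 158. Here FBD2 and FBD8 were not summed, so their case weighs more in these temporal and cross-lobe pairs than any other temporal case. The closest pair from different dogs, FBD3 and FBD7, crossed the lobes. FBD2 and FBD8, from 1 case, were closer than any of these pairs, at 63.1. Their log2 CPM correlated across genes with r = 0.981, where genes are not independent replicates, and their counts still differed by more than sampling noise (chi-square over degrees of freedom 8.72 over 16600 genes), so they are not 1 library deposited again.

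**Figure D1:**
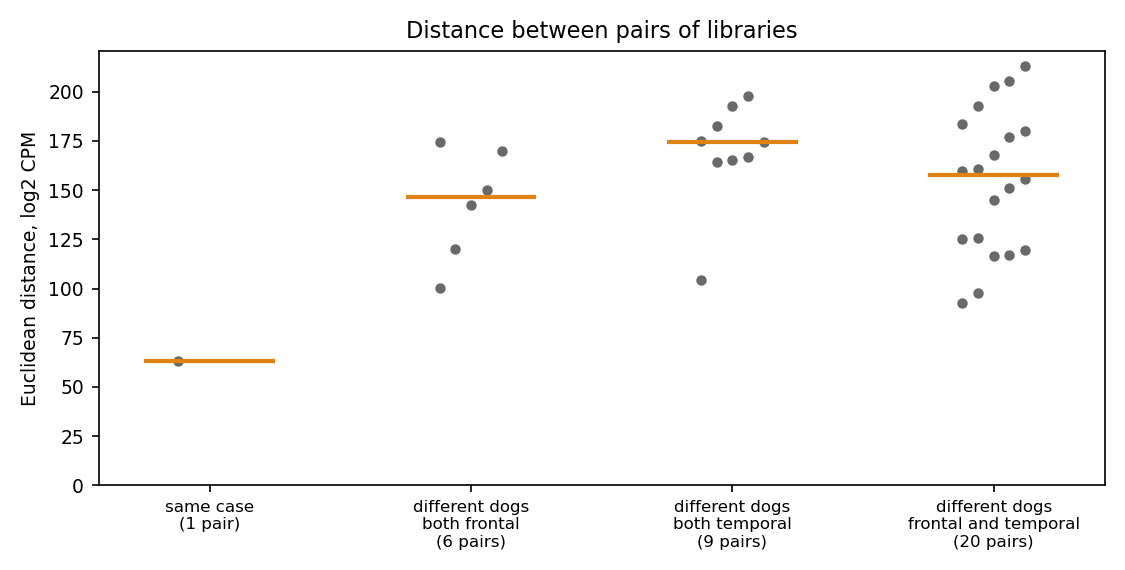
Euclidean distance between pairs of libraries on the log2 CPM scale, by whether the pair comes from the same case, the same lobe or different lobes; each point is a pair and the orange bar is the median. The pair from 1 case lies at 63.1, below all other pairs, and the pairs across lobes (92.6 to 213) span those within a lobe (100.2 to 198).

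No gene differed between the lobes after adjustment for multiple testing. Of 16412 genes tested, 0 (0%) had an adjusted p under 0.05 with edgeR's quasi-likelihood test, and the smallest adjusted p was 0.9999. At an unadjusted p under 0.05 there were 381 genes (2.32%), 179 higher (1.09%) and 202 lower (1.23%) in frontal tumors. Limma-voom called 0 genes, with 420 at an unadjusted p under 0.05 (2.56%). The DESeq2 Wald test, the tool used in the study, called 2 of 26087 (0.00767%), with 788 at an unadjusted p under 0.05 (3.02%). The 2 genes are COL11A2 and PLEKHG4B.

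The spread between dogs sets how far this count can be read. The log2 fold changes, frontal minus temporal, had a median of -0.000187 over all genes, with quartiles of -0.25 and 0.29. The 95% interval of a gene reached 0.92 to either side at the median. It was wider than 1 to either side, a 2-fold change, for 7371 genes (44.9%), so a difference of that size was not detectable for many genes with 4 cases a lobe. The estimated change was 2-fold or more for 1407 genes (8.57%), 885 higher (5.39%) and 522 lower (3.18%) in frontal tumors.

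**Figure D2:**
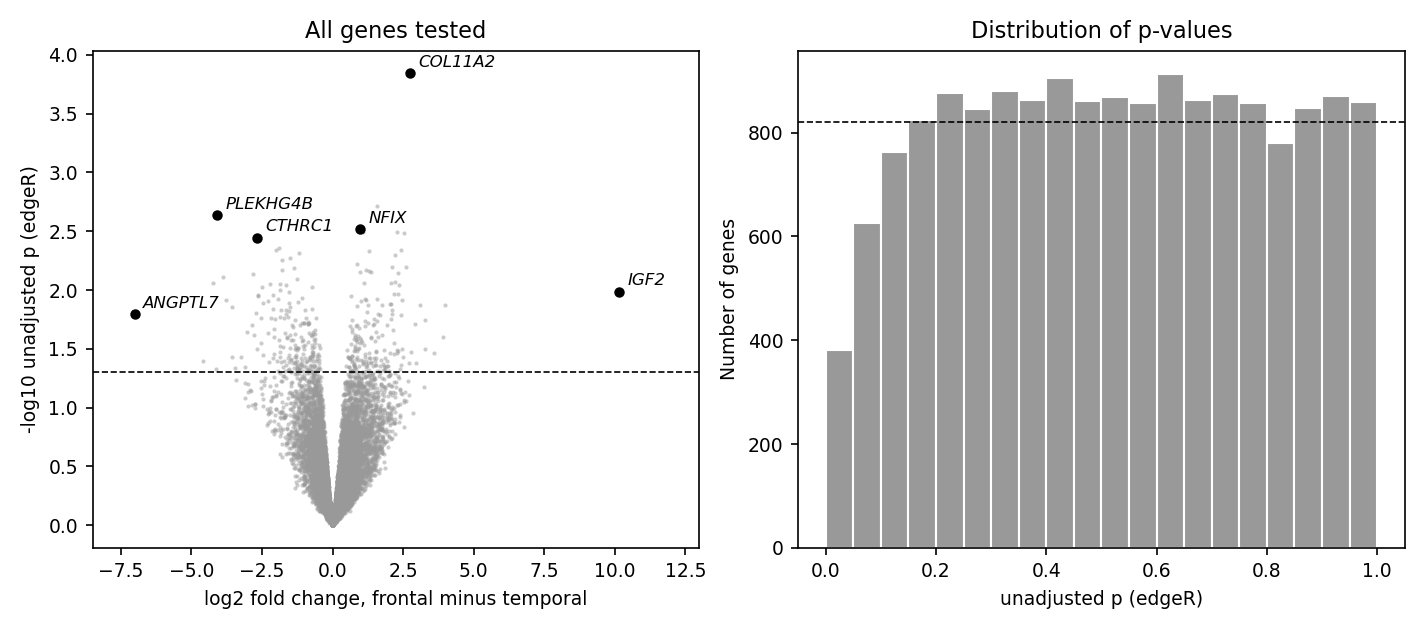
Left, log2 fold change (frontal minus temporal) against -log10 unadjusted p from edgeR for the 16412 genes tested, with 6 genes marked and a dashed line at p = 0.05; right, the number of genes in each of 20 ranges of p, with a dashed line at the number an even spread would give. COL11A2 stands alone at the top, IGF2 and ANGPTL7 lie at the outer ends with the level of a single dog behind each, and the bar of smallest p holds 381 genes, fewer than an even spread.

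COL11A2 encodes a chain of type XI collagen, a fibrillar collagen of cartilage. Its level was 584, 347, 294 and 245 CPM in the frontal cases FBD1, FBD5, FBD7 and FBD9. In the temporal cases it was 22.0 (FBD2 and FBD8), 72.0 (FBD3), 60 (FBD10) and 65.1 CPM (FBD11). The lobes did not overlap, and the lowest frontal case lay above the highest temporal case by more than the whole range among temporal cases. Such separation in this direction was seen for 132 genes (0.804%), for 100 (0.609%) in the other, and for 232 (1.41%) in either. The mean was 368 ± 150.1 CPM (SD, n = 4) in frontal and 54.8 ± 22.4 CPM (SD, n = 4) in temporal tumors, a log2 fold change of 2.75 with a standard error of 0.44 and a 95% interval of 1.76 to 3.74. The edgeR p was 0.000143 before adjustment and did not pass after it (0.9999), while the DESeq2 adjusted p was 5.32e-05.

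COL11A2 had 424 to 7743 counts per case. Leaving out each case in turn gave log2 fold changes of 2.41 to 2.91. The value was 2.91 without the right-sided tumor of FBD3, 2.58 with sex as a term, 2.87 with age as a term and 2.57 in males alone. FBD2 and FBD8, sequenced separately, gave 22.1 and 22.7 CPM. In the 7 boxers and Boston terriers, whose lobes were not joined to the libraries, COL11A2 ran from 39.9 to 406 CPM with a median of 144, a range that takes in 3 of the 4 temporal cases and 3 of the 4 frontal ones. Of its neighbours in the RefSeq gene order of the dog assembly UU_Cfam_GSD_1.0, the retinoid receptor RXRB differed by 0.46 (SE 0.28), the zinc transporter SLC39A7 by 0.19 (SE 0.27), and the chromatin reader BRD2 by -0.066 (SE 0.29) on the log2 scale, against 2.75 for COL11A2.

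PLEKHG4B, the other gene called by DESeq2, was low in frontal tumors. Its level was 0.528, 1.61, 0.820 and 0.878 CPM in the frontal cases FBD1, FBD5, FBD7 and FBD9, at 7 to 14 counts. The temporal cases had 31.9 (FBD2 and FBD8), 1.43 (FBD3), 4.42 (FBD10) and 27.1 CPM (FBD11). The lobes overlapped, as FBD3 lay below FBD5, and the high values belonged to a pair of the temporal cases. The log2 fold change was -4.09 with a standard error of 0.97 (edgeR unadjusted p = 0.00231), and the DESeq2 adjusted p was 0.0215. Boxers and Boston terriers ranged from 0.418 to 31.3 CPM.

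Of the other genes with the smallest p among those whose lobes did not overlap, none passed adjustment. NFIX, a transcription factor of neural and glial development, was at 256, 229, 183 and 164 CPM in FBD1, FBD5, FBD7 and FBD9. It was at 87.6 (FBD2 and FBD8), 132.5 (FBD3), 91.5 (FBD10) and 114 CPM (FBD11) in temporal tumors. This is a small difference with little spread within a lobe, at a log2 fold change of 0.97 with a standard error of 0.24 (edgeR unadjusted p = 0.00303). CDON, a cell surface co-receptor for Hedgehog ligands, was at 44.7, 22.9, 23.1 and 14.3 CPM in the frontal cases in the same order. Its temporal levels were 8.99, 6.94, 8.83 and 10.6 CPM, a narrow range, and the log2 fold change was 1.57 with a standard error of 0.37. DPYSL5, a collapsin response mediator protein of growing axons, was at 50.6, 22.5, 22.7 and 43.3 CPM in frontal and at 12.4, 10.2, 15.2 and 18.8 CPM in temporal tumors, a log2 fold change of 1.30 with a standard error of 0.35.

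The other genes that were highest in frontal tumors were at lower levels. FGG, the gamma chain of fibrinogen, was at 3.56 to 7.47 CPM in frontal and 0.468 to 2.61 CPM in temporal tumors. GALNT15, an enzyme that starts mucin-type O-glycans, was at 8.62 to 10.8 CPM against 2.18 to 6.08 CPM, and VIT, an extracellular matrix protein, at 7.98 to 18.8 CPM against 3.07 to 7.12 CPM. LRATD1, BTNL9, a butyrophilin-like membrane protein, and JHY complete the 10 genes. Their log2 fold changes were 2.54, 1.20 and 2.12, and JHY stayed below 2 CPM in every case but FBD9. The 10 genes had log2 fold changes of 0.97 to 2.75.

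Among genes lower in frontal tumors, CTHRC1, a secreted protein with a collagen-like repeat, was at 5.88, 6.32, 30.2 and 7.98 CPM in FBD1, FBD5, FBD7 and FBD9. It was at 168 (FBD2 and FBD8), 43.5 (FBD3), 62.9 (FBD10) and 49.8 CPM (FBD11) in temporal tumors. FBD7 was high for its lobe and the case of FBD2 and FBD8 high for the other, with no overlap. The log2 fold change was -2.68 with a standard error of 0.69 (edgeR unadjusted p = 0.00358), and it ran from -3.61 to -2.04 leaving out each case. NEK6, a kinase active in mitosis, was at 45.9, 48.3, 46.7 and 47.4 CPM in frontal tumors. The temporal cases had 65.2, 56.7, 80.2 and 111 CPM, so that the frontal cases were close together and the temporal cases spread above them, at a log2 fold change of -0.73 with a standard error of 0.24. TBC1D8, which carries a domain that acts on Rab GTPases, was at 28.2 to 34.5 CPM against 37.6 to 60.7 CPM.

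CMBL, a hydrolase, was at 2.07 to 7.20 CPM in frontal and 10.9 to 32.6 CPM in temporal tumors, and PDLIM1, a cytoskeletal adaptor, was at 1.95 to 8.29 against 8.58 to 25.6 CPM. ZNF618, a zinc finger protein, was at 8.28 to 11.1 CPM against 11.5 to 38.3 CPM. FBD11 was the highest case for RPE65, the retinoid isomerase of the visual cycle, at 27.2 CPM, and for TRAF3IP2, an adaptor of the interleukin-17 receptor, at 25 CPM. Without FBD11 their log2 fold changes went from -4.24 and -2.10 to -2.09 and -1.11. A small nuclear RNA gene with the symbol U2, at 0.479 to 0.920 against 1.90 to 2.31 CPM, belongs to a family of near-identical copies, among which its reads cannot be placed with certainty.

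**Figure D3:**
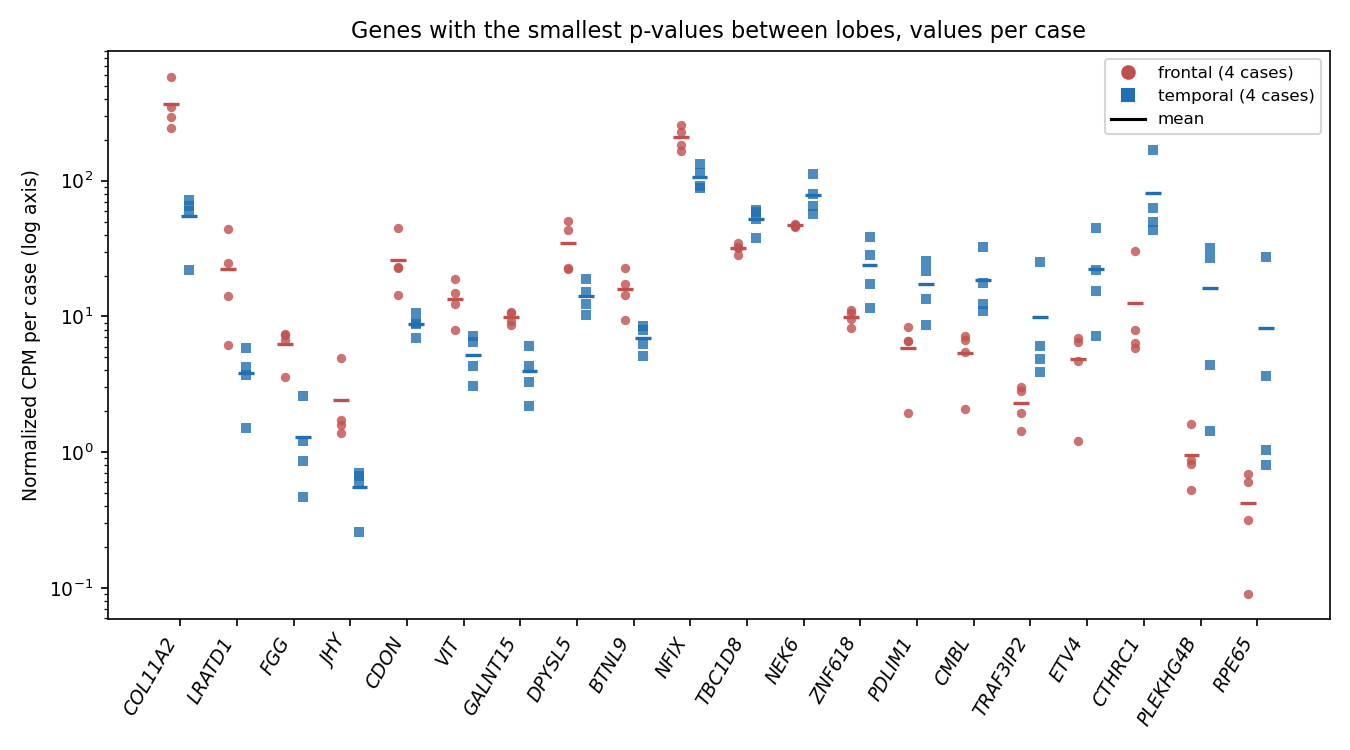
Normalized CPM per case on a log axis for the 10 genes of smallest p that were higher in frontal tumors, 9 of the 10 that were lower (U2 is not drawn) and PLEKHG4B; red circles are the 4 frontal cases, blue squares the 4 temporal cases and bars their means. All but PLEKHG4B were chosen because the lobes do not overlap; the gap is widest for COL11A2, and RPE65 and TRAF3IP2 have a single high temporal case.

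Genes that pattern the cortex from front to back showed no common direction. Of 40 such genes, 32 were listed and 21 had enough counts to be tested. Of these, 0 passed adjustment, 0 were higher and 2 were lower in frontal tumors at an unadjusted p under 0.05 (over all genes 1.09% and 1.23%), and the median log2 fold change was -0.12 (-0.32 without FBD5 and 0.00676 without FBD1). ETV4, an ETS transcription factor induced by FGF signalling, was at 1.21, 6.44, 4.74 and 6.94 CPM in FBD1, FBD5, FBD7 and FBD9. Its level was 22.0 (FBD2 and FBD8), 7.23 (FBD3), 15.5 (FBD10) and 44.8 CPM (FBD11) in temporal tumors. ETV4 was thus lower in the frontal cases, without overlap but with FBD3 just above FBD9, at a log2 fold change of -2.21 with a standard error of 0.66 (edgeR unadjusted p = 0.00896). The log2 fold changes of its relatives ETV5 and ETV1 were -0.45 (SE 0.42) and -0.19 (SE 0.42), with overlapping lobes.

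BMP7, a bone morphogenetic protein, was at 13.95, 25.3, 16.7 and 14.6 CPM in frontal tumors. The temporal cases had 72.1, 11.4, 33.5 and 60.3 CPM. FBD3 fell below every frontal case, so the lobes overlapped, and the log2 fold change was -1.33 with a standard error of 0.51 (edgeR unadjusted p = 0.0292). The SPRY2 inhibitor of FGF signalling had a log2 fold change of -0.93 (SE 0.53). EMX2, a homeobox gene of the caudal cortex, had one of 0.43 (SE 0.56), with 2.49 to 10.8 CPM in frontal and 2.41 to 8.93 CPM in temporal tumors. The nuclear receptor NR2F2 had one of -0.60 (SE 0.51), at 14.3 to 70.7 against 37.8 to 58.2 CPM, and LHX2 one of -0.63 (SE 0.74). The ligands FGF8 and FGF17 had at most 3 and 6 counts in any case, and WNT3A had 0, so they could not be compared at this depth.

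Neuronal genes were higher in frontal tumors on average, by way of a few cases. All 16 of 16 pan-neuronal and synaptic genes had a positive log2 fold change, against 50.0% of all genes, with a median of 1.02, and 0 of them reached an unadjusted p under 0.05. SNAP25, a protein of synaptic vesicle fusion, was at 12.8, 28.6, 409 and 428 CPM in FBD1, FBD5, FBD7 and FBD9. The temporal cases had 11.6 (FBD2 and FBD8), 95.4 (FBD3), 235 (FBD10) and 7.73 CPM (FBD11). High and low cases were found in both lobes, and the log2 fold change of 1.33 had a standard error of 1.30. Summed over the list, FBD7 and FBD9 had 2078 and 2082 CPM and FBD10 had 1328 CPM, while the other frontal cases had 194 and 255 CPM and the other temporal cases 128 to 624 CPM. The median of the list ran from 0.55 without FBD7 to 1.96 without FBD10.

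The neuron types that differ between regions followed the same cases. Of 12 markers of cortical projection neurons tested, 11 were higher in frontal tumors, against 50.0% of all genes, with a median of 1.25 (0.64 without FBD9 and 2.04 without FBD10) and 0 at an unadjusted p under 0.05. SLC17A7, the vesicular glutamate transporter of cortical neurons, was at 4.60, 6.78, 155 and 224 CPM in frontal and 7.02, 52.0, 96.3 and 1.10 CPM in temporal tumors. Of 12 interneuron markers, 11 were likewise higher, with a median of 0.76, which became 0.11 without FBD9 and 1.42 without FBD10. The homeobox genes DLX5 (0.920 to 3.62 against 0.100 to 1.05 CPM) and DLX1 (1.51 to 8.54 against 0.702 to 2.19 CPM) reached an unadjusted p of 0.0326 and 0.0444 with edgeR, at low levels and with overlapping lobes, where 1.09% of all genes were higher at an unadjusted p under 0.05.

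Markers of deeper or medial structures gave no common direction. Of 8 markers of hippocampal and amygdala neurons, which lie in the temporal lobe, 4 were higher and 4 lower in frontal tumors, with a median of 0.080 (-0.084 without FBD9 and 0.35 without FBD10). SLC17A6, a vesicular glutamate transporter common in subcortical neurons, was at 1.21, 0.230, 0.456 and 0.878 CPM in frontal tumors. In the temporal tumors it was at 1.25 (FBD2 and FBD8), 9.51 (FBD3), 8.43 (FBD10) and 0.301 CPM (FBD11), so that FBD3 and FBD10 were high and the other temporal cases lay within or near the frontal range. Its log2 fold change was -2.77 with a standard error of 1.02 (edgeR unadjusted p = 0.0242). PROX1, a transcription factor of dentate granule cells, had a log2 fold change of -0.071 (SE 0.33). Of 7 striatal markers, 3 were higher and 4 lower, with a median of -0.39 (0.081 without FBD3 and -0.59 without FBD1), and PDE10A, the phosphodiesterase of striatal neurons, had one of -0.64 (SE 0.42).

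**Figure D4:**
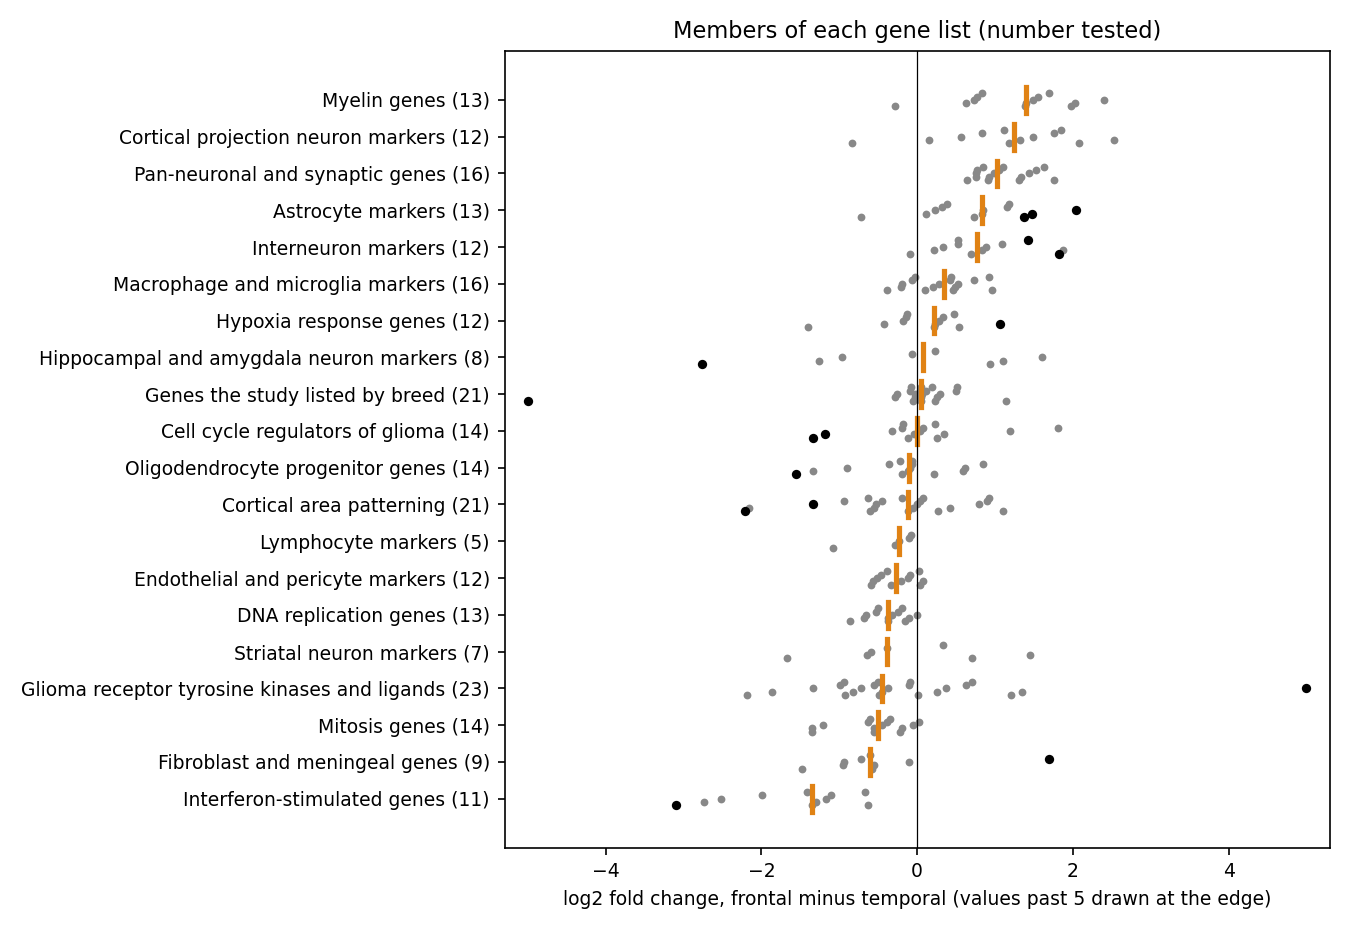
Log2 fold change, frontal minus temporal, of each tested member of the gene lists with at least 5 tested members; black points have an edgeR unadjusted p under 0.05, orange bars are list medians, and values past 5 are drawn at the edge. Myelin (1.40), projection neuron (1.25) and pan-neuronal (1.02) genes have the highest medians and interferon-stimulated genes (-1.35) the lowest, and no member passed adjustment.

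Progenitor genes of the tumor type showed no common direction either. Of 14 tested, 4 were higher and 10 lower in frontal tumors, with a median of -0.11 (0.18 without the case of FBD2 and FBD8 and -0.31 without FBD5), and the summed level was 3816 to 10860 CPM in frontal and 6932 to 16400 CPM in temporal cases. CSPG4, the NG2 proteoglycan, was at 17.2, 20.1, 53.9 and 17.5 CPM in FBD1, FBD5, FBD7 and FBD9. It was at 129 (FBD2 and FBD8), 46.2 (FBD3), 89.2 (FBD10) and 56.6 CPM (FBD11) in temporal tumors. FBD7 overlapped the temporal range, and the log2 fold change was -1.56 with a standard error of 0.48 (edgeR unadjusted p = 0.0103). PDGFRA itself ran from 169 to 1822 CPM in frontal and 209 to 4853 CPM in temporal tumors, at -1.34 with a standard error of 0.96 (0.38 in males alone), and the case of FBD2 and FBD8 was the highest.

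Genes of mature glia were higher in frontal tumors on average. Of 13 myelin genes, 12 had a positive log2 fold change, against 50.0% of all genes, with a median of 1.40. Of them 0 reached an unadjusted p under 0.05, where 1.09% of all genes were higher. Their summed level was 3782, 1170, 1212 and 9463 CPM in the frontal cases. The temporal cases had 492, 2534, 1971 and 2051 CPM. FBD9 was far above the rest and a pair of the frontal cases lay below 3 of the temporal ones, and the median became 0.24 without FBD9, 0.17 in males alone and 0.74 with age as a term. MBP, the myelin basic protein, had a log2 fold change of 1.56 (SE 1.07), which was -0.60 in males alone.

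Of 13 astrocyte markers, 12 were higher in frontal tumors, against 50.0% of all genes, with a median of 0.83 (0.47 without FBD9). Of these, 3 reached an unadjusted p under 0.05 in that direction, as did 1.09% of all genes. GLUL, the glutamine synthetase of astrocytes, was at 188, 183, 381 and 884 CPM in FBD1, FBD5, FBD7 and FBD9. It was at 119.5 (FBD2 and FBD8), 156 (FBD3), 172 (FBD10) and 143 CPM (FBD11) in temporal tumors. The lobes did not overlap, though FBD1 and FBD5 were close to FBD10, and the log2 fold change was 1.47 with a standard error of 0.51 (edgeR unadjusted p = 0.0177). CLU, the secreted chaperone clusterin, had 154 to 482 against 38.0 to 182 CPM, and the calcium-binding protein S100B 5.52 to 89.0 against 2.91 to 21.9 CPM. GFAP, the intermediate filament of reactive astrocytes, had a log2 fold change of 0.83 (SE 0.75), which was -0.13 in males alone. The summed astrocyte level was 2558 to 8103 CPM in frontal cases. In temporal cases it was 974 (FBD2 and FBD8, the lowest), 2862 (FBD3), 3540 (FBD10) and 4627 CPM (FBD11), so the lobes overlapped. Myelin and neuronal genes were also high in FBD9, the case with the highest GLUL, and the part of non-tumor tissue in these differences was not tested.

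**Figure D5:**
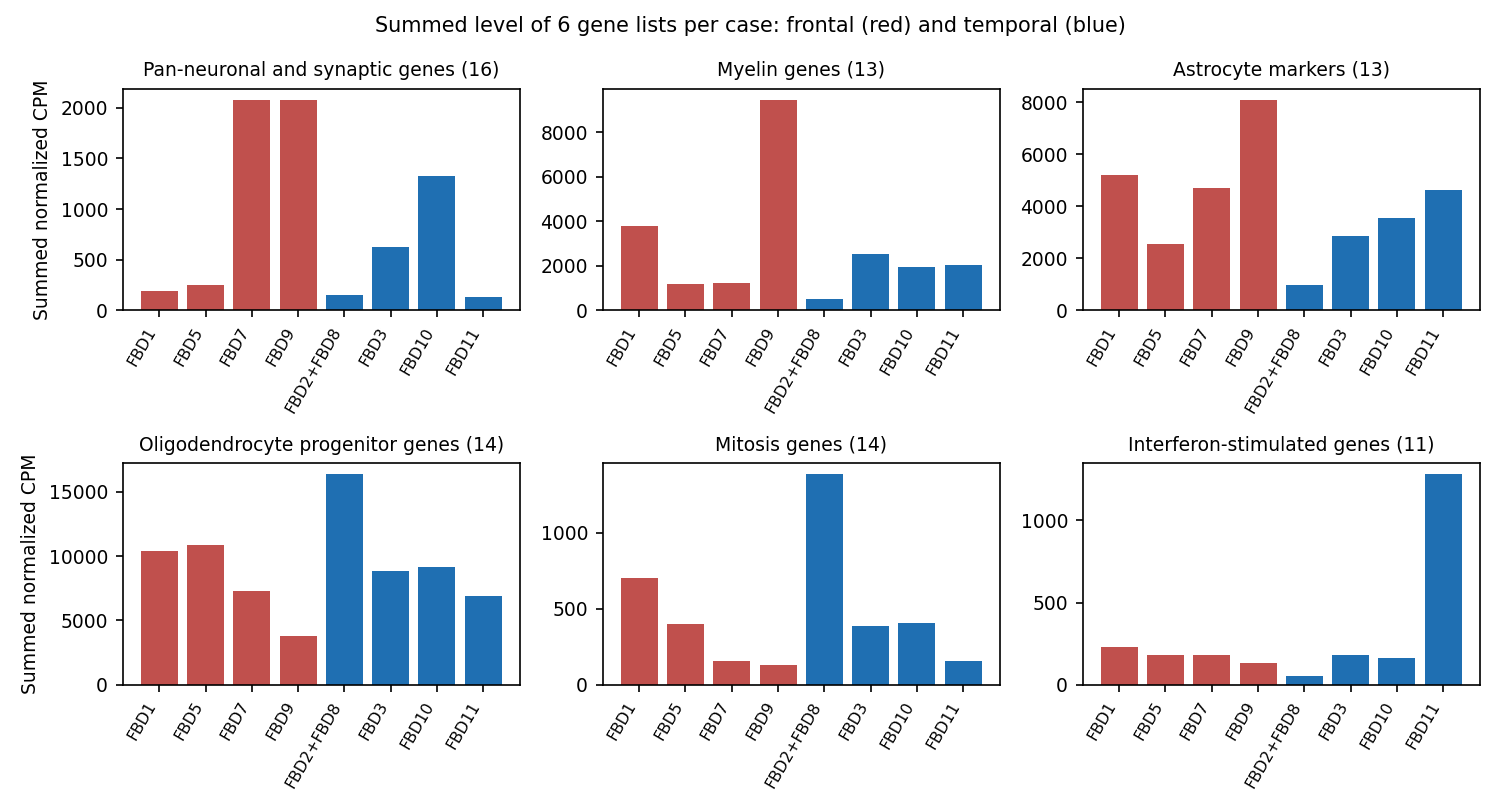
Summed normalized CPM of 6 gene lists in each case, with the number of genes in brackets; red bars are the 4 frontal and blue bars the 4 temporal cases, and each vertical axis starts at 0. Neuronal genes are high in FBD7, FBD9 and FBD10 of both lobes, myelin in FBD9 (9463 CPM), mitosis genes in the case of FBD2 and FBD8 (1387 CPM) and interferon-stimulated genes in FBD11 (1283 CPM).

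Immune and vascular genes varied from dog to dog within both lobes. Of 16 macrophage and microglia markers, 11 were higher in frontal tumors, where 50.0% of all genes were higher. Their median was 0.35, with summed levels of 231 to 562 CPM against 121 to 485 CPM. The median turned to -0.24 without FBD1 and was 0.78 without FBD11. Of 16 lymphocyte markers listed, 5 could be tested, and all 5 were lower in frontal tumors. Their median was -0.23 (-0.48 without FBD1 and -0.11 without FBD9). The T cell genes CD3D, CD3E, CD3G and CD8A had at most 6 counts in any case, so no difference in these 4 genes was detectable at this depth. The lymphocyte genes CD2, CD5 and CD4 were tested and had log2 fold changes of -0.10 (SE 0.76), -0.29 (SE 0.52) and -1.09 (SE 0.90). CD79A and JCHAIN, at higher levels, had -0.23 (SE 0.27) and -0.074 (SE 0.52, and 0.92 in males alone). Of 12 endothelial and pericyte markers, 9 were lower in frontal tumors, with a median of -0.27 (0.31 without FBD3 and -0.59 without FBD1). Of 9 fibroblast and meningeal genes, 8 were lower, with a median of -0.61 (-0.022 without FBD11 and -1.58 without FBD1), and the exception was the receptor-like gene PDGFRL at 1.61 to 5.81 against 0.401 to 1.62 CPM (edgeR unadjusted p = 0.0163). No choroid plexus or ependymal marker had enough counts to be tested, and the transthyretin gene TTR had at most 3 counts.

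Interferon-stimulated genes were lower in frontal tumors in all 11 of 11 tested, where 50.0% of all genes were higher, with a median of -1.35. At an unadjusted p under 0.05 there was 1 of them, and 1.23% of all genes in that direction. This list turned on a single dog. The summed level was 1283 CPM in FBD11, against 53.8 to 179 CPM in the other temporal cases and 130 to 227 CPM in frontal cases. ISG15, a ubiquitin-like protein induced by interferon, was at 32.8 CPM in FBD11 and at 0.364 to 1.62 CPM in the other 7 cases. Without FBD11 the median of the list was 0.44.

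Genes of cell division were lower in frontal tumors on average, again without reaching a threshold. Of 14 mitosis genes 13 were lower, with a median of -0.50, and of 13 DNA replication genes 13 were lower, with a median of -0.37. Of these, 0 reached an unadjusted p under 0.05. Over all genes 50.0% were higher, and 1.23% were lower at an unadjusted p under 0.05. MKI67, a marker of dividing cells, was at 200, 104, 35.3 and 23.1 CPM in FBD1, FBD5, FBD7 and FBD9. The temporal cases had 666 (FBD2 and FBD8), 117 (FBD3), 96.9 (FBD10) and 46.0 CPM (FBD11). The lobes overlapped and 1 temporal case stood above the rest, with a log2 fold change of -1.35 and a standard error of 0.93. Without FBD1 the mitosis median was -1.03. Without the case of FBD2 and FBD8 the medians of both lists were 0.16 and 0.17, in males alone 0.80 and 0.56, and with age as a term -0.045 and -0.030.

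Cell cycle regulators of glioma had a median of -0.00351 over 14 genes tested (-0.17 without FBD5 and 0.13 without FBD9), with MYC and CDK6 lower at an unadjusted p under 0.05, as were 1.23% of all genes. The transcription factor MYC was at 21.9, 44.4, 27.1 and 6.22 CPM in frontal tumors. Its temporal levels were 65.4, 51.0, 37.9 and 70.8 CPM, with FBD10 below FBD5 (log2 fold change -1.18, SE 0.51, edgeR unadjusted p = 0.0461). CDK6, a kinase of the G1 phase, was at 9.73 to 31.3 CPM in frontal and 18.6 to 97.9 CPM in temporal tumors (log2 fold change -1.33, SE 0.54). Cyclin D1 (CCND1) was at 1128 CPM in FBD1 and 10.4 to 169.6 CPM in the other 7 cases. Hypoxia response genes had a median of 0.22 over 12 genes (-0.00108 without FBD7), with the ankyrin repeat gene ANKRD37 at 3.33 to 8.20 against 1.61 to 3.51 CPM.

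Among 23 receptor tyrosine kinase and ligand genes the median was -0.45, and it became -0.000935 without FBD11. IGF2, an insulin-like growth factor that acts in fetal growth, was at 7696 CPM in FBD1, from 102043 counts. In the other frontal cases it was at 2.64, 2.55 and 3.27 CPM, and in the temporal cases at 0.602 to 3.59 CPM. FBD1 alone therefore carried the largest fitted difference marked in the plot of all genes, and the other 3 frontal cases overlapped the temporal ones. Boxers and Boston terriers ranged up to 23.9 CPM.

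A list of 26 of the protein-coding genes that the study named as different between breeds was also read by lobe, although they were chosen on libraries that include these. Of the 26 genes 23 were found by symbol and 21 tested, with a median of 0.051 (-0.023 without FBD5 and 0.18 without FBD11), 13 higher and 8 lower in frontal tumors. ANGPTL7, a secreted angiopoietin-like protein, was at 690 CPM in FBD11 and 0.624 to 1.84 CPM in the other 7 cases. SCN11A, a voltage-gated sodium channel, ranged from 10.1 to 994 CPM in frontal and from 0.676 to 467 CPM in temporal tumors. KAT2B, an acetyltransferase, and HIP1, an endocytic adaptor, had log2 fold changes of 0.047 (SE 0.30) and -0.088 (SE 0.28). Of 31 HOX genes 1 could be tested, HOXC4, at 8.45 CPM in FBD1 and 0.100 to 1.61 CPM in the others. HOXD8, which did not pass the filter, had 124 counts in FBD1, 423 in FBD11 and 0 to 4 in the other 6 cases.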

How the data were processed

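RNA had been extracted from paraffin sections and made into stranded libraries after removal of ribosomal RNA. The authors trimmed the reads (Trimmomatic 0.33), mapped them to the genome of the boxer Tasha with HISAT2 2.1.0 and ran featureCounts to obtain gene counts, per the labels and the methods. They deposited raw counts for 29993 genes, 16324 with a symbol. Strand and multi-mapping options are not given in the sources used here, so near-identical, overlapping and antisense genes are uncertain.

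Counts of FBD2 and FBD8 were summed. Genes were tested in edgeR 4.0.16 (R 4.3.3) by the quasi-likelihood F test (TMM, filterByExpr by lobe, robust, no covariate, two-sided, Benjamini-Hochberg over 16412 genes). CPM are scaled by TMM library sizes. Standard errors are the log2 fold change over the square root of F. DESeq2 1.42.0 (the tool of the study), limma-voom (limma 3.58.1), other scalings, filters, terms and subsets were alternatives. Log2 CPM used a prior count of 2. The code was tested on simulated data.

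The members and gene lists were chosen with earlier results of these data known. Genes were named by a rule: the 10 with a symbol of smallest p in each direction among those whose lobes did not overlap, those DESeq2 called, a set of patterning genes, list members at an unadjusted p under 0.05, and the 3 of highest mean CPM per list. Others (such as HOXD8 and TTR) were chosen after their values were seen. Nothing states that the libraries were prepared together, and XIST was not listed under a symbol, so the join of dogs to libraries could not be checked by sex. Figures were drawn with matplotlib.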

Additional observations from a re-analysis of the deposited data

Results flagged for a closer look

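Within a lobe, a case was marked when its gap to the next case exceeded Dixon's 95% limit for 4 samples (0.829 of the range). Of 86 groups checked, 8 were marked. The limit marks about 1 in 20 groups by chance where values are normally distributed and groups independent. Here the CPM were not logged and the groups share the same cases, so the count of marks cannot be set against that rate. JHY was at 4.95 CPM in frontal FBD9, with the next case at 1.73 CPM. CTHRC1 was at 30.2 CPM in frontal FBD7 (next 7.98) and at 168 CPM in the temporal case of FBD2 and FBD8 (next 62.9). In temporal FBD11, RPE65 was at 27.2 CPM (next 3.61), TRAF3IP2 at 25 CPM (next 6.08) and the summed interferon-stimulated genes at 1280 CPM (next 179). The HOX genes tested, which is HOXC4 alone, were at 8.45 CPM in frontal FBD1 (next 1.61). The genes the study listed by breed summed to 2360 CPM in frontal FBD5 (next 1450). No explanation was tested.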

How the results depend on the processing

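No paired analysis was possible because the frontal and temporal cases come from different dogs. The count of genes at an adjusted p under 0.05 was 0 in 22 alternatives and 2 with DESeq2. Genes at an unadjusted p under 0.05 numbered 381 of 16412 (2.32%). There were 756 of 26335 (2.87%) with no filter and 788 of 26087 (3.02%) with DESeq2. With FBD2 and FBD8 as separate samples there were 746 of 16342 (4.56%). With boxers and Boston terriers sharing the spread there were 844 of 17270 (4.89%). Leaving out each case gave 250 (1.49%, without FBD9) to 643 (3.82%, without FBD3), with 595 (3.56%) without FBD10. The share of variance between lobes was 11.3% to 12.2% in other settings and 11.6% to 17.0% leaving out each case. The difference in mean total counts, -921420, was 1319164 with the mean of FBD2 and FBD8 and ran from -2021541 to 936610 leaving out each case. Of 2239 values for the 98 named genes, 128 changed sign, 36 of them by over 1 standard error. With limma-voom, the log2 fold change was 0.95 for WNT7B, 0.41 for IFI44 and -0.11 for CCND1. With age as a term it was 0.029 for ETV5 and 0.56 for JCHAIN. In males alone it was 0.29 for ETV1, 0.20 for ETV5, 0.38 for PDGFRA, -0.60 for MBP, -0.13 for GFAP, -0.44 for CSF1R, 0.92 for JCHAIN, -0.59 for FLT1, 0.47 for MKI67, 0.65 for TOP2A, 0.94 for TPX2, 0.64 for MCM6, 0.71 for MCM4 and 0.31 for RRM1. Leaving out each case, it ran from -0.35 to 0.31 for MEIS2, -0.41 to 0.54 for LMO3, -0.072 to 0.87 for VCAN, -0.17 to 0.79 for C1QC, -0.49 to 0.62 for C1QB, -0.44 to 0.48 for JCHAIN, -0.61 to 0.41 for VWF, -2.23 to 0.20 for COL1A1, -0.34 to 1.35 for VEGFA, -2.12 to 0.068 for MKI67, -0.71 to 0.27 for MCM6, -0.53 to 0.46 for MCM4, -1.68 to 0.47 for MX2, -1.06 to 0.69 for IFI44, -1.40 to 2.36 for CCND1, -0.081 to 2.21 for HOXC4 and -0.73 to 3.22 for SCN11A. The causes were not tested.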

Other observations

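Small non-coding RNAs, recognised by symbol in 1910 genes, took 4.58%, 3.95%, 4.08% and 4.2% of the counts in FBD1, FBD5, FBD7 and FBD9. They took 3% (FBD2 and FBD8), 3.71% (FBD3), 3.33% (FBD10) and 3.06% (FBD11) in temporal cases. The lobes did not overlap, and the difference of 0.928 percentage points had an exact permutation p of 0.0286, the smallest that 4 cases against 4 can give (two-sided). The measure was chosen after the data were seen. FBD2 and FBD8 of 1 case had 2.48% and 3.49%, a difference as large as that between the lobes, and the exact permutation p was 0.0857 with the most counted gene left out of the totals. Of 320 of these genes tested, 123 (38.4%) had a positive log2 fold change. The class of small RNAs other than snoRNAs, microRNAs, U RNAs and Y RNAs held 0.841 points of the difference, with 21 of its 25 tested genes (84%) positive, against 79 of 220 (35.9%) for spliceosomal and other U RNAs. The exact permutation p of that class was 0.0857, and after adjustment over the 6 classes no single class could have passed with 4 cases a lobe.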
